A study of Homo sapiens with 13 samples.

Results

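The plasminogen activator system genes described here are PLAU, PLAUR, PLAT, SERPINE2 and SERPINB2. These 5 of the 19881 protein-coding genes with a canonical transcription start site (TSS) were taken by name; the rule uses no measured value, but the set was proposed with earlier results of these data known. The chromatin of MDA-MB-231 cells, an established human line of triple-negative, basal B breast cancer that grows invasively, had been immunoprecipitated and sequenced under standard culture conditions, with no treatment and no second cell line. The targets were H3K4me1, H3K27ac, H3K4me3, RNA polymerase II (Pol II) and CTCF (2 replicates per target) and p300/CBP, for which immunoprecipitations had been pooled into 1 library. The deposited lists hold the positions of peaks called on merged replicates, without a height or a count per peak. There is therefore no error between replicates and no known depth, no test was made, and each statement is about whether a peak was called in these 6 lists.

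Plasminogen activators are serine proteases that cut the inactive plasminogen into plasmin, a broad protease that dissolves fibrin and opens the extracellular matrix. PLAU encodes urokinase (uPA), PLAUR the cell surface receptor that holds uPA at the membrane (uPAR), and PLAT the tissue-type activator (tPA). SERPINE2 (protease nexin-1) and SERPINB2 (PAI-2) encode inhibitors that trap these proteases, the former also thrombin. Active promoters carry H3K4me3, H3K27ac and Pol II, active enhancers carry H3K4me1 with H3K27ac and often the acetyltransferases p300/CBP, and CTCF binds sites that can bound chromatin loops.

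PLAU, PLAUR and PLAT had promoters with H3K27ac, H3K4me3 and Pol II, SERPINE2 had both histone marks and CTCF without Pol II, and SERPINB2 had no peak. In the 3 kb window centred on the TSS of the canonical transcript, H3K27ac and H3K4me3 peaks were called at PLAU, PLAUR, PLAT and SERPINE2, 4 of 5 each, where 61.5% and 62.7% of all protein-coding genes had such a peak. Pol II peaks lay in the windows of PLAU, PLAUR and PLAT (3 of 5, against 58.4% of all genes), and so did all of H3K27ac, H3K4me3 and Pol II together (3 of 5, against 56.3%). H3K4me1 was called in the windows of the same 3 genes (59.4% of all genes). CTCF was called at PLAUR and SERPINE2 (2 of 5, against 17.6% of all genes). No window held a p300/CBP peak, as in all but 0.704% of genes. Read against these shares, counts over 5 genes are no result about the genes as a group.

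What differed among the members was how much of each promoter lay under peaks. H3K27ac peaks covered 100% of the PLAU window, 85.0% at PLAUR, 70.6% at PLAT, 18.3% at SERPINE2 and 0% at SERPINB2, and the median over all genes was 41.7%. For H3K4me3 the order was the same, with 100%, 85.0%, 52.3%, 41.7% and 0%, against a median of 48.3%. The order for Pol II was again PLAU (100%), PLAUR (71.0%) and PLAT (11.7%), with 0% at both inhibitors and a median of 16.7%. PLAU and PLAUR thus lay above the median gene in all 3 lists and SERPINB2 below it in all 3. PLAT was above it for both histone marks and below it for Pol II, and SERPINE2 was below it throughout.

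**Figure D1:**
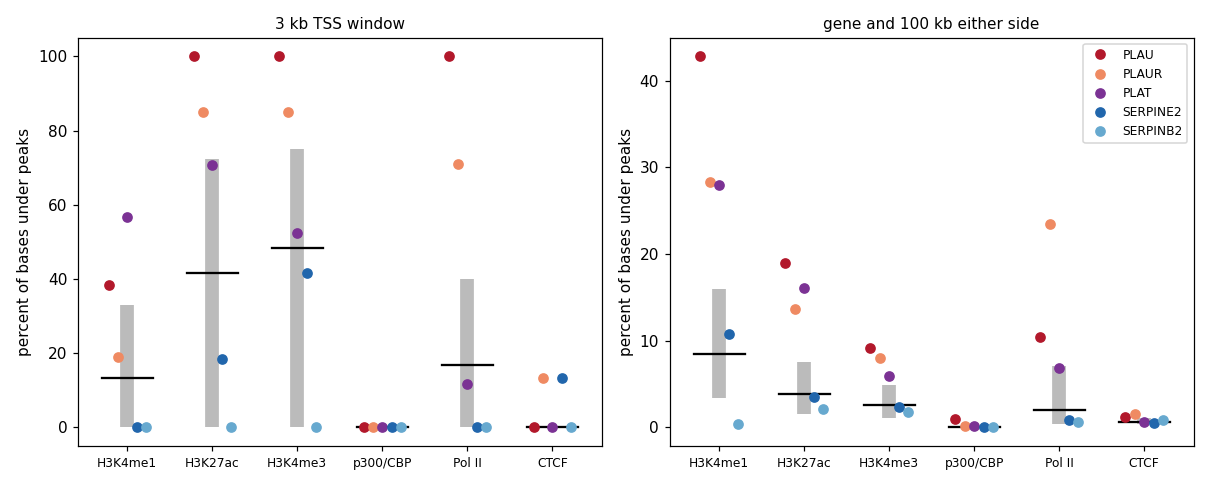
Percent of bases under peaks of each list in the 3 kb TSS window (left) and in the gene with 100 kb either side (right), 1 point per gene; the black line is the median and the grey bar the span from the lower to the upper quartile over 19881 protein-coding genes. PLAU lies at 100% for H3K27ac, H3K4me3 and Pol II in its TSS window, and SERPINB2 at 0% for every list there.

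Over the gene bodies, Pol II peaks were called at the same 3 genes (3 of 5, against 63.6% of all genes). They covered 100% of PLAU, which put it at percentile 98.6 of all genes, 69.9% of PLAUR (percentile 95.5) and 31.3% of PLAT (percentile 90.2). A percentile here is the share of genes with a lower value, with ties counted to their middle. SERPINE2 and SERPINB2 had 0%, and the median gene 0.749%. Peaks of CTCF over the gene body were called at PLAUR and SERPINE2 (2 of 5, against 50.6% of all genes).

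PLAU, on the plus strand of chromosome 10 (GRCh37/hg19, 75668935 to 75677254, with the canonical TSS at 75670890), is a gene of 8.32 kb that lay whole inside a single Pol II peak. That peak was 11950 bp wide and ran from -4.69 to 7.26 kb, where distances are from the canonical TSS in the direction of transcription. An H3K27ac peak of 10050 bp (-6.54 to 3.51 kb) and an H3K4me3 peak of 9200 bp (-4.19 to 5.01 kb) spanned the promoter. Their widths stood at percentiles 99.5 and 99.7 of their lists. Along the canonical transcript divided into 5 equal parts, H3K27ac covered 100%, 100%, 75.9%, 31.4% and 0% from 5′ to 3′, and H3K4me3 100%, 100%, 100%, 93.8% and 0%. The acetylated and trimethylated stretch therefore reached far into the gene and stopped before its end, whereas Pol II peaks filled every part and 0.898 kb of the 5 kb after it. H3K4me1 covered 28.4% of the part nearest the TSS, 100% of each of the next 3 and 64.5% of the part at the 3′ end.

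Upstream of PLAU lay a long candidate active enhancer (cAE), an H3K4me1 region that shares at least 1 bp with H3K27ac and touches no TSS window of a protein-coding gene. It ran over 17450 bp from -25.1 to -7.69 kb (75645751 to 75663201), which put it at percentile 99.3 of the 24323 cAEs by width. It held 5 p300/CBP peaks, at -23.4, -18.4, -18.2, -16.5 and -11.7 kb, a number reached or passed by 69 cAEs (0.284%). The ranking was not matched for cAE width. The calls at -18.4 and -18.2 kb were 100 bp each and less than 500 bp apart. H3K27ac covered the long cAE in 3 pieces of 9450, 3200 and 250 bp. At its far end a CTCF peak, a Pol II peak of 2500 bp and an H3K4me3 peak of 1450 bp were called, although no TSS window of a protein-coding gene lies there. A second cAE of 3800 bp (-6.54 to -2.74 kb) held a p300/CBP peak at -4.49 kb. The p300/CBP peak nearest to the TSS (-2.14 to -1.79 kb) lay just outside the 3 kb window, over the first bases of the longest annotated PLAU transcript. It shared bases with H3K27ac, H3K4me3 and Pol II and with no H3K4me1 peak.

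**Figure D2:**
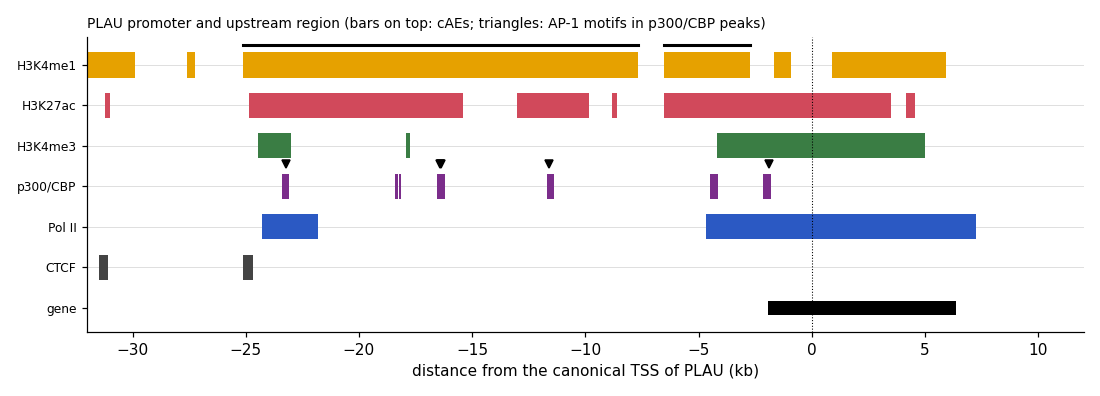
Peaks of the 6 lists from 32 kb before to 12 kb after the canonical TSS of PLAU (x axis, kb); the black bars on top are the 2 cAEs and the triangles the AP-1 motifs found in p300/CBP peaks. Of the 7 p300/CBP peaks, 5 lie in the cAE of 17450 bp, and all 7 lie between the CTCF peak at -25.1 kb and the TSS.

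PLAU stood out among the members by p300/CBP. In the gene and 100 kb either side, 8 p300/CBP peaks were called at PLAU, 3 at PLAT, 2 at PLAUR, 1 at SERPINE2 and 0 at SERPINB2 (4 of 5 genes with any, against 37.5% of all genes). The count at PLAU was at percentile 98.6, and its nearest p300/CBP peak, 1.79 kb away, was closer than for nearly all genes (percentile 0.832 of the distance, median 199 kb). The stretch between the CTCF peaks on either side of the PLAU TSS, at -24.7 and 29.4 kb, was 54.1 kb long. It held 7 of the 8 p300/CBP peaks, 4 cAEs in whole or in part, and no other protein-coding TSS. The remaining p300/CBP peak, at 55.1 kb, was nearer to the TSS of VCL, the gene of the adhesion protein vinculin, than to that of PLAU. Which promoter any of these elements acts on was not tested.

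Sequences under p300/CBP peaks of PLAU are shown because they bear on AP-1, the FOS and JUN dimer to which Fra-1 belongs and for which the urokinase gene is a textbook target. The AP-1 motif TGANTCA, which reads the same on both strands, was found in 5 of the 8 PLAU peaks, with 6 matches. It was in 28.1% of p300/CBP peaks genome-wide, in 54.3% of the 3160 that are 250 to 350 bp wide, and in 61.3% of those of that width in cAEs. The widths matter here, since the 2 PLAU peaks of 100 bp hold no match and 5 of the other 6 do. A match is a description of the letters and not of a bound site. Capitals mark the motif, and sequences are from the GRCh37 genome.
PLAU p300/CBP peak at -23.4 kb, chr10:75647501-75647800, plus strand: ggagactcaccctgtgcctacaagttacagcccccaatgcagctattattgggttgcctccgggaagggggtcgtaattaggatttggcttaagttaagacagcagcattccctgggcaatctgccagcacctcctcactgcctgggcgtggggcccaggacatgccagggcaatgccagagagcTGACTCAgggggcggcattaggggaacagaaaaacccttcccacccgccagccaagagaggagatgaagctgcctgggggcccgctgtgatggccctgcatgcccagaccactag
PLAU p300/CBP peak at -16.5 kb, its first 300 bp, chr10:75654351-75654650, plus strand: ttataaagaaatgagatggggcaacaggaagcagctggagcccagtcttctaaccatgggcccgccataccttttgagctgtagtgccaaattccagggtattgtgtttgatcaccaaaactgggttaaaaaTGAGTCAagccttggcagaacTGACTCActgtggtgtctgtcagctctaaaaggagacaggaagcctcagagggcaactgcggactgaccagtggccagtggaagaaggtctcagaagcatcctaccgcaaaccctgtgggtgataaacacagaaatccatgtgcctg
PLAU p300/CBP peak at -11.7 kb, chr10:75659201-75659500, plus strand: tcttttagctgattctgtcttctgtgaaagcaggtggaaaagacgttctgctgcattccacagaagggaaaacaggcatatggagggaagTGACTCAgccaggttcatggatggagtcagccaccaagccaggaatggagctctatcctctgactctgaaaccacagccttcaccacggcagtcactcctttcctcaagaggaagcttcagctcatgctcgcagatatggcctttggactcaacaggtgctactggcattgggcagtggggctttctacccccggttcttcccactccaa
PLAU p300/CBP peak at -2.14 kb, site only, chr10:75668990-75669016, plus strand: gggagcaacaTGAATCAtgacggtccc

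Of the PLAU matches in the long cAE, 3 read TGACTCA and 1 read TGAGTCA, the same word on the opposite strand, and 2 of them lay side by side at -16.4 kb. The match near the promoter, at -1.89 kb, read TGAATCA. No p300/CBP peak of the 5 genes held the CTCF core motif, which 0.408% of all p300/CBP peaks held.

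PLAUR lies on the minus strand of chromosome 19 (44150247 to 44174699, canonical TSS at 44174321) and spans 24.5 kb. At its promoter the H3K27ac and the H3K4me3 peak had the same ends, 44173101 and 44175651, and a width of 2550 bp. That width stood at percentiles 80.0 and 81.8 of their lists. Pol II was called in 5 peaks over the gene, and the 5 equal parts of the canonical transcript were covered, from 5′ to 3′, by 70.0%, 93.0%, 100%, 30.5% and 36.3%. Pol II peaks also took up 3.63 kb of the 5 kb after the canonical transcript, against 0.898 kb at PLAU and 1.03 kb at PLAT. The canonical PLAUR transcript ends at 44152731, before the end of the gene at 44150247. A Pol II peak from 44149101 to 44153451 covered both positions, so part of the 3.63 kb lay within annotated PLAUR. At PLAU and PLAT the canonical transcript ends at or next to the gene end. The values therefore do not compare Pol II past the ends of the genes. H3K27ac covered 42.2% of the part nearest the TSS and 0% of the other 4, and H3K4me3 45.6% and then 0%. H3K4me1 reached further, with 27.8%, 16.2% and then 0%.

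Of the 5 genes, PLAUR had the densest CTCF binding within its body. CTCF peaks of 400 bp each lay in introns at 0.621, 7.27 and 17.5 kb, all sharing bases with Pol II peaks, and covered 4.91% of the gene (percentile 96.6). The CTCF peak at 0.621 kb lay inside the promoter peaks of H3K27ac and H3K4me3. Of its 6 cAEs within 100 kb, 2 were nearer to the PLAUR TSS than to that of any other protein-coding gene: 1 of 1200 bp at 1.92 to 3.12 kb, in the gene, and 1 of 2550 bp at -6.58 to -4.03 kb. Both carried H3K4me3 and neither a p300/CBP peak. The cAE in the gene contains annotated starts of other PLAUR transcripts, at 1.93 and 2.48 kb. Their own 3 kb windows held H3K27ac, H3K4me3 and Pol II. The nearest p300/CBP peak was 95.1 kb from the TSS, nearest to the TSS of SMG9, and the other lay at 107 kb in XRCC1. The nearer peak is shown because it holds 2 AP-1 matches, TGAATCA and TGACTCA, in capitals.
p300/CBP peak at -95.3 kb from PLAUR, chr19:44269401-44269650, plus strand: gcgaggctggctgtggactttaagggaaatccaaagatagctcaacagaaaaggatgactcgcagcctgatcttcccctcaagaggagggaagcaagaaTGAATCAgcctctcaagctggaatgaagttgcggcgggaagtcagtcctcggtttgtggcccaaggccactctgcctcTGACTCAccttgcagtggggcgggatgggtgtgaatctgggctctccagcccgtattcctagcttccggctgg

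PLAT lies on the minus strand of chromosome 8 (42032236 to 42065227, canonical TSS at 42065083) and spans 33.0 kb. Here Pol II was spread unlike at PLAU and PLAUR. A peak of 350 bp sat at the TSS (-0.117 to 0.232 kb), 3 lay inside the gene, and a peak of 8300 bp ran over the 3′ end (25.6 to 33.9 kb). The 5 equal parts of the transcript were covered by 3.55%, 22.2%, 14.0%, 15.5% and 100%. The promoter carried H3K27ac over 2200 bp and H3K4me3 over 1850 bp, flanked by H3K4me1 on both sides, and H3K4me1 covered 56.7% of the TSS window against 38.3% at PLAU and 19.0% at PLAUR.

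**Figure D3:**
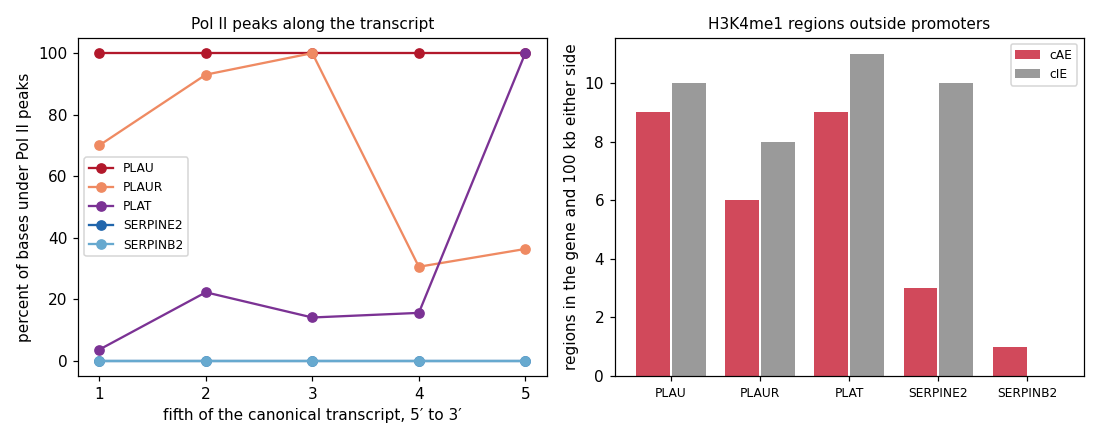
Left, percent of bases under Pol II peaks in each of 5 equal parts of the canonical transcript from 5′ to 3′, 1 line per gene (SERPINE2 and SERPINB2 are both at 0%); right, number of cAEs and candidate inactive enhancers (cIEs, H3K4me1 without H3K27ac outside TSS windows) in the gene and 100 kb either side. PLAT reaches 100% in the part at its 3′ end after 3.55% in the part at its TSS, and SERPINB2 has 1 cAE and no cIE.

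Enhancer marks within PLAT were wide. An intronic cAE of 8750 bp (6.13 to 14.9 kb, percentile 94.6 of cAE widths) held an H3K27ac peak of 4750 bp, Pol II and 3 small H3K4me3 peaks, and a cAE of 4000 bp lay upstream at -10.6 to -6.57 kb. Neither held a p300/CBP peak. Annotated starts of other PLAT transcripts lie inside the intronic cAE, at 11.9, 13.8 and 14.1 kb. Their own 3 kb windows held H3K27ac, H3K4me3 and Pol II, and the cAE definition left out canonical TSS windows only. The 3 p300/CBP peaks within 100 kb lay at -49.4, -85.3 and -93.1 kb, each in a cAE, and all were nearest to the TSS of IKBKB, a kinase gene of the NF-kappaB pathway. PLAT is 1.77 Mb from the longest undetermined stretch of its chromosome, and of the 13984 p300/CBP peaks 9252 lie further than 5 Mb from such stretches. Without the peaks within 5 Mb, the PLAT count went from 3 to 0 and that of the other 4 genes stayed as it was. Each of the 3 peaks shares bases with both H3K4me1 and H3K27ac. No CTCF peak lay in PLAT, and the CTCF peaks on either side of its TSS were 148 kb apart, the longest such stretch among the 5 genes.

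SERPINE2, on the minus strand of chromosome 2 (224839762 to 224904035, canonical TSS at 224904003), is with 64.3 kb the longest of the genes. Its promoter carried histone marks without a Pol II peak. An H3K27ac peak of 550 bp lay at 0.553 to 1.10 kb, inside an H3K4me3 peak of 950 bp at 0.453 to 1.40 kb, and a second H3K4me3 peak of 300 bp lay at -0.697 to -0.398 kb. A CTCF peak of 400 bp (-0.597 to -0.198 kb) overlapped the upstream H3K4me3 peak. No Pol II peak was called in the gene, and the 2 within 100 kb of it lay at the TSSs of MRPL44 and WDFY1. Over its body and flanks SERPINE2 was near the median gene for H3K27ac (3.52% against 3.80%, percentile 47.4) and H3K4me1 (10.8% against 8.45%, percentile 59.3).

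Away from its promoter SERPINE2 had 3 cAEs and 10 cIEs within 100 kb. A cAE of 1450 bp lay in an intron (42.9 to 44.3 kb), next to a CTCF peak at 45.3 kb. A cAE of 2800 bp at -47.9 to -45.1 kb held the only p300/CBP peak within 100 kb (150 bp, -47.4 kb), and SERPINE2 is the nearest protein-coding TSS to it. That peak held no AP-1 match. The intronic CTCF peak is shown because it is the 1 of 3 CTCF peaks near SERPINE2 with the CTCF core motif, in capitals. The stretch printed from its middle is centred on the motif, not on the peak.
SERPINE2 intronic CTCF peak at 45.3 kb, its middle 300 bp, chr2:224858380-224858679, plus strand: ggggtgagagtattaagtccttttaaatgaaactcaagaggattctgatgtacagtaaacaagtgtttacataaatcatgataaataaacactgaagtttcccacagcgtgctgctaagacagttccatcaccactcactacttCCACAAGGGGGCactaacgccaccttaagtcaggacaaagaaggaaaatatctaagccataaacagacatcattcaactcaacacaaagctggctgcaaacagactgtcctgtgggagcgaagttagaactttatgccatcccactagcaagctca

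The CTCF core motif, 12 letters searched on both strands, was in 8 of the 34 CTCF peaks within 100 kb of the 5 genes, 2 of 8 at PLAU, 2 of 10 at PLAUR, 0 of 5 at PLAT, 1 of 3 at SERPINE2 and 3 of 8 at SERPINB2. Genome-wide it was in 26.6% of CTCF peaks, and the word is strict enough that most CTCF peaks lack it. The CTCF peak beside the SERPINE2 TSS held no match.

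SERPINB2 lies on the plus strand of chromosome 18 (61538926 to 61571122, canonical TSS at 61554939) in a cluster of clade B serpin genes. None of the 6 lists had a peak in its TSS window or gene body. Within 100 kb there was 1 H3K4me1 peak, which made the only cAE, 850 bp at -17.9 to -17.1 kb (61537001 to 61537851), overlapped by an H3K27ac peak of 1300 bp. This element lies just upstream of the 5′ end of a longer annotated SERPINB2 transcript that starts at -16.0 kb, whose own 3 kb window it touches, without H3K4me3 or Pol II. H3K4me1 covered 0.366% of the gene and its flanks (percentile 6.27), H3K27ac 2.09% (percentile 31.6), and the nearest p300/CBP peak was 551 kb away (percentile 82.0). CTCF peaks covered 0.840%, above the median gene (0.659%), with 8 peaks, of which 3 lay upstream between -43.4 and -37.5 kb and 5 downstream from 48.5 kb, and none shared bases with another list.

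Most TSS windows of the serpin cluster were without peaks. Of the 9 other clade B serpin genes of the chromosome 18 cluster, 1 had H3K27ac, H3K4me3 and Pol II peaks in its TSS window, SERPINB8, and the other 8, SERPINB3, SERPINB4, SERPINB5 (maspin), SERPINB7, SERPINB10, SERPINB11, SERPINB12 and SERPINB13, had no peak of any list in theirs, although an H3K27ac peak of 200 bp lay within SERPINB7. Next to SERPINB8, at 82.4 kb, the neighbour HMSD, at 61.6 kb, was marked as well, and both lie beyond the CTCF peak at 48.5 kb. The 250 bp before the SERPINB2 TSS are shown because, although no peak was called there, they hold an AP-1 match (TGAATCA, in capitals), as do the same 250 bp of 4.69% of protein-coding genes. The PLAUR promoter also held 1 AP-1 match, along with 1 match to the CTCF core motif, and the promoters of PLAU, PLAT and SERPINE2 held neither.
SERPINB2 promoter, chr18:61554689-61554938, plus strand: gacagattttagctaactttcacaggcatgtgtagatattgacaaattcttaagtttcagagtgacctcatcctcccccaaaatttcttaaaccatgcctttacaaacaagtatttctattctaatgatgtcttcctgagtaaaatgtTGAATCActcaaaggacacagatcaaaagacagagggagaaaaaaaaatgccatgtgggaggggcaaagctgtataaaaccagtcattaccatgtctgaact

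**Figure D4:**
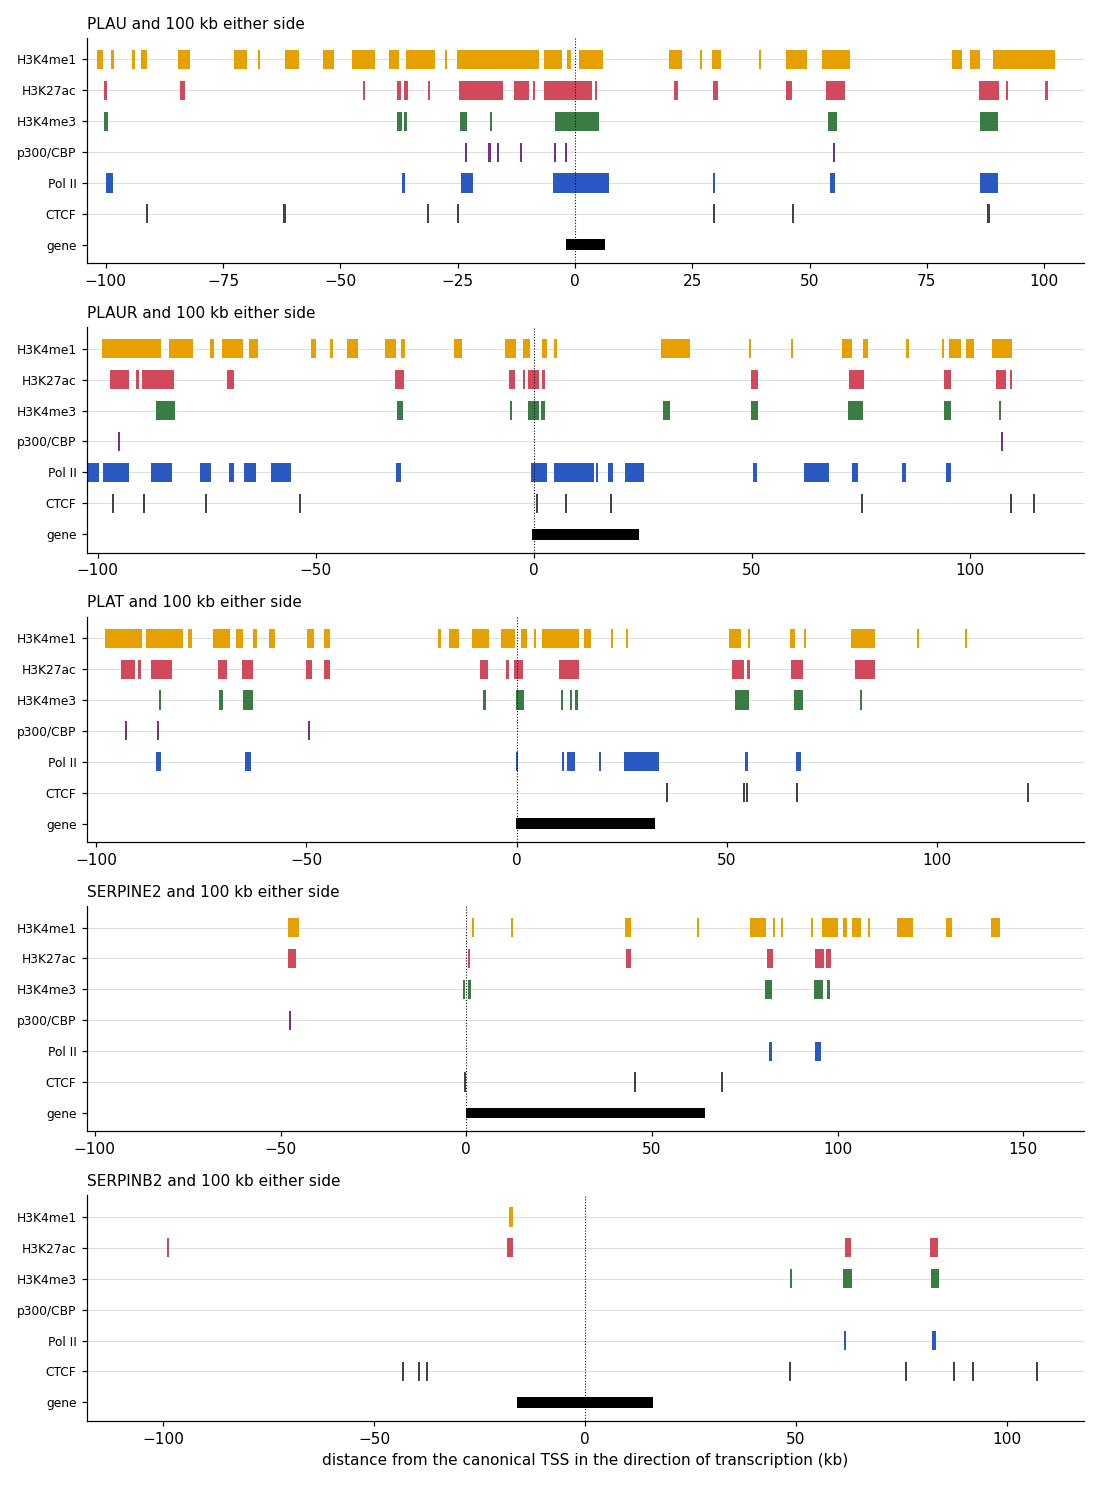
Peaks of the 6 lists (rows) over each gene and 100 kb either side, by distance from the canonical TSS in the direction of transcription (kb); the black bar is the gene, and peaks narrower than the line are drawn at a minimum width. H3K4me1 peaks number 26, 25, 26, 16 and 1 from PLAU to SERPINB2, and p300/CBP peaks 8, 2, 3, 1 and 0.

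Across the loci, cAEs within 100 kb numbered 9 at PLAU, 9 at PLAT, 6 at PLAUR, 3 at SERPINE2 and 1 at SERPINB2, with a median of 3 over all genes. They covered 57100, 44000, 16450, 8600 and 850 bp, respectively, and the widest was 17450 bp at PLAU and 8750 bp at PLAT. Active elements with p300/CBP were 3 of 9, 3 of 9, 1 of 6, 1 of 3 and 0 of 1, against 20.6% of all cAEs. Those with Pol II were 5, 2, 4, 0 and 0, and those with H3K4me3 4, 6, 4, 1 and 0, for which no share over all cAEs was computed. Elements without H3K27ac were spread otherwise: there were 10 cIEs at PLAU, 11 at PLAT, 8 at PLAUR, 10 at SERPINE2 and 0 at SERPINB2 (median 6). SERPINE2 thus had as many inactive elements as PLAU and 3 active ones against 9, counted over a longer stretch (gene of 64.3 kb against 8.32 kb). The latter contrast depended on the definition, since PLAU had 4 cAEs and SERPINE2 2 where H3K27ac had to cover at least 50% of the H3K4me1 peak, 4 and 3 without the peaks under the median width of their list, and 13 and 10 with 200 kb either side. H3K4me1 covered 42.8% of PLAU and its flanks (percentile 99.6), against 28.3% at PLAUR, 27.9% at PLAT, 10.8% at SERPINE2 and a median of 8.45%.

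The neighbourhood of a gene was not always marked as the gene. All 3 protein-coding neighbours of SERPINE2 within 100 kb (WDFY1, MRPL44 and an unnamed gene sharing the WDFY1 start) had H3K27ac, H3K4me3 and Pol II in their TSS windows, as did all 4 of PLAU and both of PLAT. Of the 10 neighbours of PLAUR, 7 had H3K27ac and 6 Pol II, and of the 5 of SERPINB2, 2 had both.

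Among 16 other genes of the plasminogen system, 7 had H3K27ac, H3K4me3 and Pol II in the TSS window, against 56.3% of all genes. Read against that share, the count is no result about these genes as a group. Among the 7 were SERPINI1, PLGRKT, ANXA2, S100A10, ENO1 and LRP1. Of the inhibitors, SERPINI1 (neuroserpin) was marked with Pol II over 0.742% of its body, and SERPINF2 (alpha-2-antiplasmin) and SERPINA5 had no H3K27ac, H3K4me3 or Pol II in the window. The genes of the proteins that bind plasminogen at the cell surface were marked: ANXA2 had Pol II over 89.5% of its body and 9 p300/CBP peaks within 100 kb, its partner S100A10 40.5%, ENO1 100%, and PLGRKT 1.03% with the only p300/CBP peak in a TSS window of the list. LRP1, the receptor that clears activator and inhibitor complexes, had a marked promoter and 0% Pol II over its body. PLG itself, which encodes plasminogen and is made in the liver, and the plasma or epithelial proteases and cofactors VTN, CPB2, KLKB1, F12, ST14 and HPN had no H3K27ac or H3K4me3 peak in the window. ANXA2 and PLAU thus had the most p300/CBP peaks, 9 and 8, of the genes of the system named here.

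The label of the cells was compared with marker genes. All 6 basal or mesenchymal markers (VIM, CD44, CAV1, FOSL1, EGFR and AXL) had H3K27ac, H3K4me3 and Pol II in the TSS window. Of 8 luminal markers, FOXA1, ERBB3 and KRT19 had all 3, PGR had H3K4me3 alone, and ESR1, GATA3, CDH1 and EPCAM had no peak of these lists there.

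To place each gene, the 12 values of percent covered (6 lists, in the TSS window and in the gene with its flanks) were turned into percentiles and compared between genes by their mean absolute difference. PLAU and PLAUR differed by 12.8 percentile points, PLAU and PLAT by 17.1, PLAUR and PLAT by 21.7, and SERPINE2 and SERPINB2 by 21.9. Across the 2 sets, the differences ran from 31.6 (PLAT and SERPINE2) to 54.3 (PLAU and SERPINB2). For the median and the most similar genes below, genes whose canonical TSS lay within 300 kb of that of the member were left out. Close neighbours, such as other genes of the serpin cluster near SERPINB2, could therefore not be named. For scale, the median difference to all remaining genes was 36.1 for PLAU, 35.9 for PLAUR, 28.3 for PLAT, 25.7 for SERPINE2 and 24.8 for SERPINB2. The difference of 21.9 between SERPINE2 and SERPINB2 was thus little below the median of either gene. The genes most like PLAU were C19orf33 (3.24), EPHA2 (3.63) and G0S2 (3.97), those most like PLAUR were EHD1 (2.54), PLEKHJ1 (3.37) and UBQLN4 (3.58), and those most like PLAT were NRROS (3.61), IFIT1 (4.73) and RRP1B (5.21). ABCA1 (5.63), NEDD4L (6.02) and CD38 (6.06) were most like SERPINE2, and PAGE4 (2.07), GOLGA8Q (2.07) and CERS3 (2.14) most like SERPINB2. Each likeness is one of position and amount of peaks over 12 values from the same lists and describes nothing further.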

How the data were processed

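ChIP-seq libraries from MDA-MB-231 cells were aligned to hg19, with BWA-backtrack in the study's methods and Bowtie2 per the labels. The authors made a signal from reads with a unique position (PASHA, bins of 50 bp), pooled both replicates of a target and took as peaks the bins over a threshold in the Integrated Genome Browser. Their deposited files hold peak positions in bp, without a value per peak, so that depth, replicate error and confidence intervals could not be given. Peaks under the threshold are not listed, and bins were joined across gaps of 50 to 1000 bp depending on the list, which sets peak widths and counts. Lists were scaled differently and were not compared by amount. The deposited p300/CBP list holds 13984 peaks, more than the study reports, and every p300/CBP count and share here rests on it. Input libraries, Fra-1 binding and RNA were not analysed here.

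Listed positions are all multiples of 50 plus 1, and ends were read as the base after the peak. Genes came from GENCODE release 44 on GRCh37, and 1 shared bp was enough for overlap. Values were computed with Python 3.11.15 and NumPy 2.4.6, and figures drawn with matplotlib 3.10.9. Interval and motif code was tested on simulated data. Motifs were searched in the GRCh37 sequence. The genes named are the members, 16 genes of the system, the serpin cluster, coding neighbours within 100 kb and 14 cell type markers. Also named are the 3 most similar genes per member, leaving out genes with a canonical TSS within 300 kb of its own. Members and lists were chosen with earlier results of these data known. The alternatives changed windows, flanks, overlap, peak width and joining of peaks. A gene of the system and the sequence of a peak are not reported here.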

Additional observations from a re-analysis of the deposited data

How the results depend on the processing

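Of 90 alternative values for 21 results, 74 stayed within 1.5 times the count or within the 95% Wilson interval of the share of bins (counting error only), and 16 moved. With a 1 kb TSS window, H3K4me1 was called at 1 gene in place of 3 and CTCF at 1 in place of 2; with peak centres required inside, H3K4me1 was again at 1. A 5 kb window took p300/CBP from 0 genes to 1, PLAU. Requiring H3K27ac over at least 50% of the H3K4me1 peak left 4 of 9 cAEs at PLAU. With the narrower peaks of each list (under its median width) left out, cAEs were 4 at PLAU and 0 at SERPINB2, p300/CBP peaks 1 at PLAUR and 1 at PLAT, and Pol II covered 27.8% of PLAT in place of 31.3%. With 50 kb either side, p300/CBP peaks were 0 at PLAUR and 1 at PLAT; with 200 kb, cAEs were 10 at PLAUR and 10 at SERPINE2, and p300/CBP peaks 7 at SERPINE2. Leaving out p300/CBP peaks within 5 Mb of undetermined sequence, an alternative chosen after the data were seen, took PLAT from 3 to 0, while 35.2% of all genes still had a peak within 100 kb. The other alternatives, all TSSs of basic transcripts, joined p300/CBP peaks and the canonical span among them, moved no result by this measure. Within its tolerance, some TSS calls still changed. H3K4me1 was called at 4 genes with all basic TSSs or a 5 kb window. H3K27ac was called at 3 genes in place of 4 with a 1 kb window, with peak centres required inside, or without the narrower peaks. Without the narrower peaks, H3K4me3 went from 4 genes to 3 and Pol II from 3 to 2. No higher peak threshold could be set, and no replicate could be left out, because the lists hold merged replicates without values. No paired analysis was possible because replicates were merged before the peaks were called. Peaks below the threshold cannot be told from absent binding.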
